A study of Mus musculus with 2 samples.

Results

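The renin-angiotensin system of the mouse adrenal gland was described through 9 genes, chosen by symbol for their known roles among the 43346 mouse genes of the deposited tables. They were the substrate Agt, the enzymes Ren1 and Ace, the receptors Agtr1a, Agtr1b, Agtr2 and Mas1, the (pro)renin receptor Atp6ap2, and Lnpep, the insulin-regulated aminopeptidase that also binds angiotensin IV. All 9 had a row in the gene tables and in the transcript tables of each library.

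The study measured poly(A) RNA above 200 nucleotides, depleted of ribosomal RNA, from whole adrenal glands of adult C57BL/6J mice aged 8 weeks. The animals were littermates of mixed sex, and the labels give neither a treatment nor the sex of the animals behind each library. The labels name 2 libraries, which they call biological replicates 1 and 2 of 1 group, and they give both the same donor identifier. The libraries were strand-specific, read in pairs of 76 bases and made with ERCC spike-in RNAs.

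As background, renin cuts the amino end of angiotensinogen to release angiotensin I, and angiotensin-converting enzyme trims angiotensin I to angiotensin II. Angiotensin II acts through AT1 receptors, which in mice are encoded by a pair of genes, and through the AT2 receptor. In the outer zone of the adrenal cortex, the zona glomerulosa, angiotensin II drives the secretion of aldosterone, which makes the kidney retain sodium.

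The tables held 47615328 expected counts on mouse genes in replicate 1 and 52890686 in replicate 2. An expected count is an estimated number of read pairs, and TPM, a share of all transcripts on a fixed scale, also corrects for transcript length, so levels of different genes are compared in TPM. Markers of the labelled tissue were high. The 6 steroid cortex genes summed to 22545 TPM in replicate 1 and 30411 TPM in replicate 2, led by Cyp21a1, and the 6 medulla genes summed to 3909 and 3606 TPM, led by Chga. The 8 fat markers, led by Cfd, reached 1 TPM in both libraries and summed to 13270 TPM in replicate 1 and 5844 TPM in replicate 2, and the 8 liver markers, led by Ahsg, of which 2 did so, to 6.19 and 36.3 TPM. The 9 kidney markers, led by Aqp2, summed to 0.75 TPM in replicate 1 and 0.64 TPM in replicate 2, with Nphs1, Slc12a1 and Kap at 0 in each. Sex-linked genes set the libraries apart: Xist had 3401 counts in replicate 1 and 8376 in replicate 2, and 4 Y-linked genes summed to 358 and 0 counts.

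With 1 group there is no contrast between conditions. Replicate 1 was set over replicate 2 as a ratio of counts scaled by TMM, a method that equalizes libraries on the bulk of their genes. Each ratio has an exact Clopper-Pearson 95% interval, which covers counting error only and not the spread between animals. Without further replicates of each side, no p-value was computed.

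**Figure D1:**
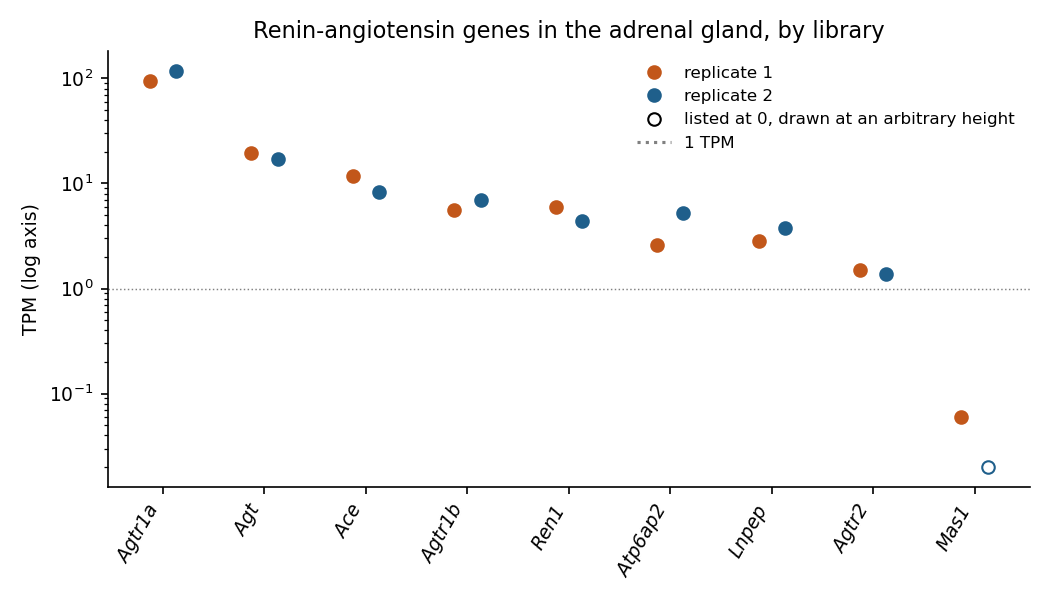
Deposited TPM of the 9 genes on a log axis, ordered by mean, with 1 point for each library and replicate 1 beside replicate 2. Agtr1a stands alone near 100 TPM, and Mas1 lies at the bottom with 0.06 TPM in replicate 1 and 0 in replicate 2, the open circle.

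Of the 9 genes, 8 had at least 1 TPM in both libraries, a level that 12445 of the 43346 mouse genes reached. Together the 9 held 0.0145% of TPM in replicate 1 and 0.0167% in replicate 2. Agtr1a was highest, followed by Agt, Ace, Agtr1b, Ren1, Atp6ap2, Lnpep, Agtr2 and Mas1. The values of the 2 libraries did not overlap between Agtr1a and Agt, Agt and Ace, Ace and Agtr1b, Lnpep and Agtr2, or Agtr2 and Mas1. They overlapped in the other 3 of the 8 neighbouring pairs, Agtr1b with Ren1, Ren1 with Atp6ap2, and Atp6ap2 with Lnpep, so the order within that stretch was not resolved.

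Sequences at the starts of the genes show a feature that the choice of members did not use. The promoter table, from RefSeq on GRCm38.p6, held 9 windows for 8 of the genes, with Ace represented by a somatic start and a testis start; each window ran from 250 bases before the start to 50 after. The motif TATAAA, searched on both strands, occurred in 4 of these 9 windows and in 13.6% of all 32851 windows. In all 4 it began between 35 and 26 bases before the start, a stretch where 2.07% of all windows held it. Neither the motif nor this stretch was part of the planned results, so these shares are a description and not a test. The 5 stretches below run from 45 bases before to 15 after the start, at chr8:124569692-124569751 (minus strand), chr1:133350629-133350688 (plus), chr11:105967903-105967962 (plus), chr11:105975144-105975203 (plus) and chr3:20367163-20367222 (minus). Capitals mark TATAAA, or TTTATA where it reads on the opposite strand.
Agt: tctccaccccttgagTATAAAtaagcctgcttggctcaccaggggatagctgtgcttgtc
Ren1: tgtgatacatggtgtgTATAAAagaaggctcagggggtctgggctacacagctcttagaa
Ace, somatic start: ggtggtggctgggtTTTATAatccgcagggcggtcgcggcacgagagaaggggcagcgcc
Ace, testis start: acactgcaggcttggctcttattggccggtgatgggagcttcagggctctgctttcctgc
Agtr1b: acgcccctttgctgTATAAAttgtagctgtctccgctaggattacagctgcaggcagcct
The match began 30 bases before the start in Agt, 29 in Ren1 and 31 in Agtr1b, on the gene's own strand, and 31 bases before the somatic start of Ace on the opposite strand. These distances hold for the RefSeq starts, chr3:20367177 for Agtr1b and chr1:133350674 for Ren1. The leading transcripts begin elsewhere in GENCODE M21, Agtr1b-202 at chr3:20367124 and Ren1-201 at chr1:133350510. The motif AAGGTCA occurred in 4.72% of all windows and in 0 of the 9. A match is a run of letters and was not tested as a binding site.

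Agt encodes angiotensinogen, the only known precursor of the angiotensins. The gene (ENSMUSG00000031980.9, chr8:124556534-124569706 on the minus strand of mm10) had 1161 counts in replicate 1 and 1088 in replicate 2. This was 19.69 TPM in replicate 1 and 17.18 TPM in replicate 2, a mean of 18.4 ± 1.77 TPM (SD, n = 2), which ranked 5675 among all mouse genes. Its scaled count was higher in replicate 1, with a log2 ratio of 0.24 (interval 0.12 to 0.36). The table lists a single transcript, Agt-201. Fat and liver, known sources of angiotensinogen, had markers that differed between the libraries. Of the 8 fat markers, 7 were higher in replicate 1, and Lep, with 825 counts in replicate 1 and 1343 in replicate 2, was lower. The 7 liver markers with enough counts were lower in replicate 1. The part of either tissue in the Agt value was not tested. The codons of angiotensin I lie in GENCODE M21 at chr8:124564450-124564479, residues 30 onward of the 482 encoded, shown with the 8 codons of angiotensin II in capitals.
Agt, angiotensin I codons: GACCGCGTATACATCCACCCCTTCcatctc

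Ren1 encodes renin, the aspartic protease whose cut starts the cascade. Ren1 (ENSMUSG00000070645.5, chr1:133350510-133360325, plus strand) had 293 counts in replicate 1 and 230 in replicate 2. This was 6.03 TPM in replicate 1 and 4.40 in replicate 2, a mean of 5.22 ± 1.15 TPM (SD, n = 2). Renin transcripts were thus present well above the floor of 3 counts in each library. Kidney markers were near 0, and the source of the renin transcripts was not tested. The log2 ratio was 0.50 (0.24 to 0.75), higher in replicate 1, and all counts fell on the full-length Ren1-201 of 1592 nucleotides and 9 exons. Substrate transcripts exceeded enzyme transcripts, with a ratio of Agt to Ren1 in TPM of 3.27 in replicate 1 and 3.90 in replicate 2.

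Ace encodes the peptidyl-dipeptidase that forms angiotensin II by removing a dipeptide from the carboxyl end of angiotensin I, and also inactivates bradykinin. Ace (ENSMUSG00000020681.10, chr11:105967945-105989964, plus strand) had 1746 counts in replicate 1 and 1343 in replicate 2. Its level was 11.87 TPM in replicate 1 and 8.26 TPM in replicate 2, a mean of 10.1 ± 2.55 TPM (SD, n = 2), and its log2 ratio was 0.53 (0.42 to 0.63), higher in replicate 1. Ace is abundant on endothelium, and the 6 endothelial markers, led by Plvap, summed to 816 TPM in replicate 1 and 712 TPM in replicate 2, with 5 of the 6 count ratios above 0. Their part in the Ace value was not tested. In whole tissue, fewer cells of a type cannot be told apart from less RNA per cell.

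The transcripts of Ace differ in how many catalytic domains they encode. The somatic enzyme has a pair of them and the testis enzyme has 1, each with the zinc-binding motif HExxH. The motif was found at 2 places in the 1312 residues of the somatic transcript Ace-201 and at 1 place in the 732 residues of the testis transcript Ace-202. The codons of the somatic pair, in capitals with 15 bases on each side, lie at chr11:105972895-105972939 and chr11:105985079-105985123.
Ace, first HExxH: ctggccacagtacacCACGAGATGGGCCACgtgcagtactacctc
Ace, second HExxH: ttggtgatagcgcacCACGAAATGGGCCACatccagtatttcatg
Ace-202 had 0 counts in both libraries. Ace-201 (4906 nucleotides, 25 exons) took 1200.32 counts in replicate 1 and 1053.81 in replicate 2, or 7.33 and 6.01 TPM. Ace-203, a model of 3649 nucleotides whose coding part does not open with a start codon, took 545.68 counts in replicate 1 and 289.19 in replicate 2, or 4.54 and 2.25 TPM. Ace-203 held 38.28% of the gene's TPM in replicate 1 and 27.22% in replicate 2, the remainder being Ace-201. It shares 3464 bases with Ace-201 and has 185 of its own, and Ace-201 has 1442 bases that Ace-203 lacks, of which 738 lie before its start and 704 after its end. The split between these models rests on the reads that reach such bases. Its reading frame also holds both HExxH motifs. The antisense gene Gm11651, which overlaps Ace, had 0 counts in both libraries.

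**Figure D2:**
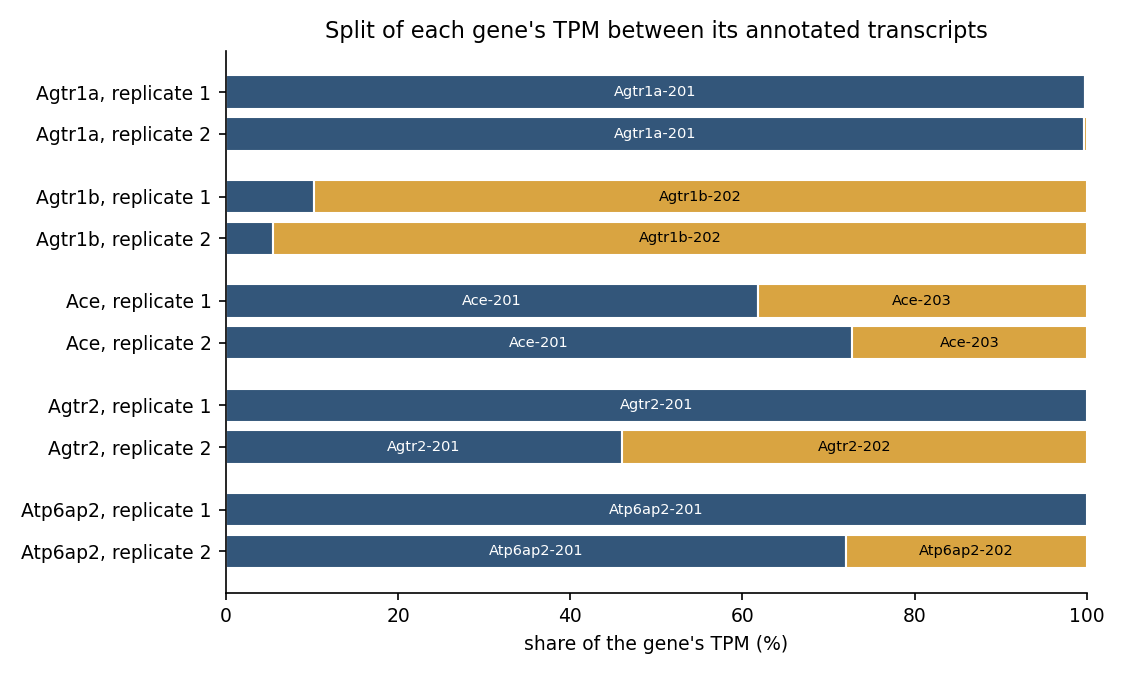
Share of the gene's TPM held by each transcript of Agtr1a, Agtr1b, Ace, Agtr2 and Atp6ap2, in percent, with replicate 1 above replicate 2. The bars of Agtr2 and Atp6ap2 differ most between the libraries, and Agtr1a is nearly filled by Agtr1a-201.

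Agtr1a encodes the main AT1 receptor, a Gq-coupled receptor through which angiotensin II acts on the zona glomerulosa. Agtr1a (ENSMUSG00000049115.10, chr13:30336441-30382867, plus strand) had 6516 counts in replicate 1 and 8849 in replicate 2. Its level was 93.66 TPM in replicate 1 and 118.72 TPM in replicate 2, a mean of 106 ± 17.7 TPM (SD, n = 2), rank 1619 of all mouse genes. Its log2 ratio was -0.29 (-0.34 to -0.25), lower in replicate 1. The 6 zona glomerulosa markers, led by Dab2, summed to 413 TPM in replicate 1 and 486 TPM in replicate 2. They did not all differ the same way: Shh was higher in replicate 1, at 59.35 TPM against 34.94 TPM in replicate 2, Hsd3b6 was level with a log2 ratio of -0.01, and the other 4 were lower in replicate 1. Their part in the Agtr1a value was not tested. Agtr1a-201 held 99.81% of the TPM in replicate 1 and 99.64% in replicate 2. By distance in log2(TPM + 1) over the 2 libraries, the protein-coding genes nearest in level were Impdh2 (distance 0.0047), Pqbp1 (0.0082) and Apeh (0.0306).

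Agtr1b, the other AT1 gene, also binds angiotensin II. Agtr1b (ENSMUSG00000054988.9, chr3:20314473-20367177, minus strand) had 288 counts in replicate 1 and 381 in replicate 2, or 5.56 and 6.95 TPM. Its mean was 6.26 ± 0.983 TPM (SD, n = 2), and its log2 ratio was -0.26 (-0.48 to -0.03). Agtr1a therefore exceeded Agtr1b 16.8-fold in replicate 1 and 17.1-fold in replicate 2, a ratio that differed less between libraries than either gene's level did. The model Agtr1b-202 (1633 nucleotides, 3 exons) held 89.77% of the gene's TPM in replicate 1 and 94.52% in replicate 2, and Agtr1b-201 (2147 nucleotides, 2 exons) held 10.23% and 5.48%.

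The AT1 genes resemble each other, and the resemblance bears on how well reads separate them. Their coding sequences, 1077 bases each, differed at 99 places, an identity of 90.8%, and the encoded receptors of 359 residues differed at 22. No window of 76 bases, the read length, was identical among the 1002 compared, and the median window held 6 differences. The most alike window held 1 difference, at chr13:30381013-30381088 (plus strand) in Agtr1a and chr3:20316306-20316381 (minus strand) in Agtr1b, with the differing base in capitals.
Agtr1a: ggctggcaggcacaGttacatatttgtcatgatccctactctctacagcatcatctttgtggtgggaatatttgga
Agtr1b: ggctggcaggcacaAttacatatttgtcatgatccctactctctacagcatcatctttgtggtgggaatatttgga
The deposited posterior SD of the count, which widens where reads are shared between genes, was 0.04 counts for Agtr1a in replicate 1 and 0 in replicate 2, and 0 for Agtr1b in both. So the counting assigned nearly every read pair to 1 of these genes without sharing.

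Agtr2 encodes the AT2 receptor, which opposes many AT1 actions and is abundant in fetal tissues. Agtr2 (ENSMUSG00000068122.6, chrX:21484544-21489164, plus strand) had 161 counts in replicate 1 and 76 in replicate 2. Its log2 ratio was 1.22 (0.83 to 1.64), 2.34-fold higher in replicate 1 by scaled count. Its deposited TPM barely differed, at 1.5 in replicate 1 and 1.37 in replicate 2, a mean of 1.44 ± 0.0919 TPM (SD, n = 2). The measures part at the level of transcripts. The coding transcript Agtr2-201 (3283 nucleotides) had 161 counts in replicate 1 and 72.49 in replicate 2, or 1.5 and 0.63 TPM. The noncoding Agtr2-202, of only 314 nucleotides, had 0 counts in replicate 1 and 3.51 in replicate 2, which the length correction turned into 0 and 0.74 TPM. Agtr2-202 thus held 54.02% of the gene's TPM in replicate 2 on 3.51 counts. For the coding transcript alone the log2 count ratio was 1.29.

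Agtr1a made up 93.0% of the TPM of Agtr1a, Agtr1b and Agtr2 in replicate 1 and 93.5% in replicate 2. Agtr1a exceeded Agtr2 62.4-fold in replicate 1 and 86.7-fold in replicate 2.

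Mas1 encodes the Mas receptor, which responds to angiotensin-(1-7). Mas1 (ENSMUSG00000068037.6, chr17:12841079-12868143, minus strand) had 1 count in replicate 1 and 0 in replicate 2, or 0.06 and 0 TPM over its 9 listed transcripts. A count of 0 allows up to 3 counts, or 0.0567 CPM (counts scaled to library size) in replicate 2, so Mas1 was not detectable at this depth. The antisense gene Airn, which overlaps Mas1, had 121 counts in replicate 1 and 139 in replicate 2. No ratio is given for Mas1.

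Atp6ap2 encodes an accessory subunit of the V-ATPase, the pump that acidifies lysosomes and secretory granules, and its product also binds renin and prorenin. Atp6ap2 (ENSMUSG00000031007.2, chrX:12587801-12617049, plus strand) had 191 counts in replicate 1 and 326 in replicate 2. Its level was 2.58 TPM in replicate 1 and 5.22 TPM in replicate 2, a mean of 3.90 ± 1.87 TPM (SD, n = 2). Its log2 ratio by scaled count was -0.62 (-0.89 to -0.36), 1.54-fold higher in replicate 2, whereas by TPM it was -1.02. A short retained-intron model entered here too. Atp6ap2-202 (692 nucleotides) had 0 counts in replicate 1 and 27.49 in replicate 2, or 0 and 1.46 TPM, and the coding Atp6ap2-201 (2324 nucleotides) had 2.58 and 3.76 TPM. Compared by blastn with all GENCODE M21 transcripts, Atp6ap2 matched the pseudogene Gm36448 at 98.4% identity over 438 bases. Gm36448 has no row among the genes used here, and how read pairs that fit several places were treated is not stated in the files or labels. The Atp6ap2 level is uncertain to that extent.

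Lnpep encodes a membrane aminopeptidase that travels with the glucose transporter GLUT4 and cleaves oxytocin and vasopressin. Lnpep (ENSMUSG00000023845.6, chr17:17521410-17625050, minus strand) had 496 counts in replicate 1 and 695 in replicate 2, or 2.86 and 3.75 TPM. Its mean was 3.31 ± 0.629 TPM (SD, n = 2), its log2 ratio was -0.34 (-0.51 to -0.17), and all of it was on the single transcript Lnpep-201.

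**Figure D3:**
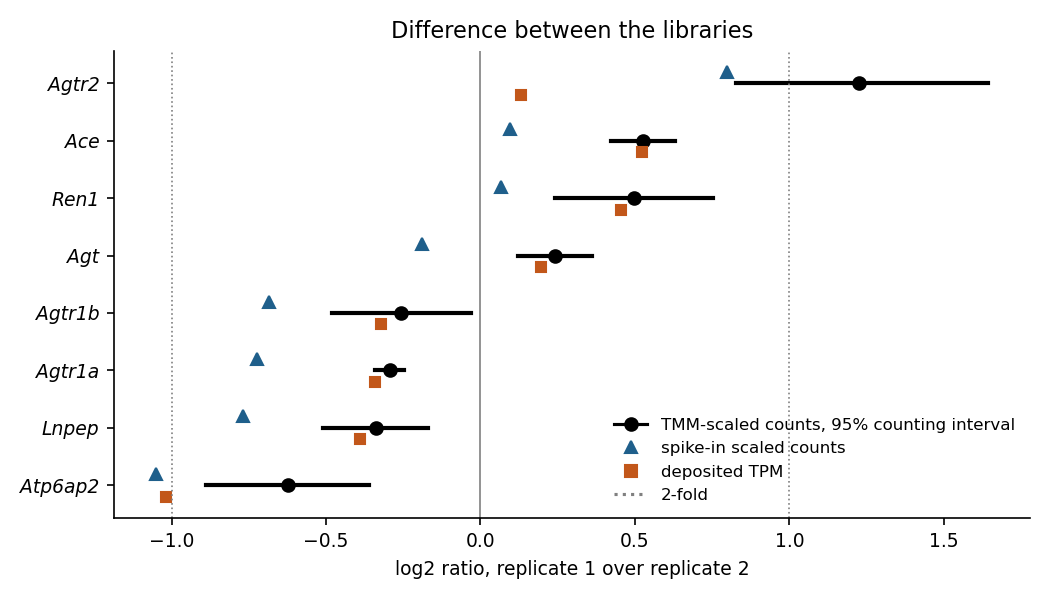
Log2 ratio of scaled counts, replicate 1 over replicate 2, for the 8 genes whose counts summed to 20 or more, with 95% counting intervals as bars; triangles show spike-in scaling and squares the deposited TPM. By TMM, Agtr2 lies beyond 2-fold on the side of replicate 1, and Atp6ap2, at -0.62, is the farthest towards replicate 2.

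Between the libraries, 1 of the 8 genes whose counts summed to 20 or more, Agtr2, differed at least 2-fold in scaled counts, in a background where 7.59% of the 15824 genes so tested did. By deposited TPM, 1 gene, Atp6ap2, differed at least 2-fold, with 9.13% of all genes past that fold, so the measure decided which gene was past it. Among 8 genes, 1 past that fold is near the background share. Agt, Ren1, Ace and Agtr2 had ratios above 0, and Agtr1a, Agtr1b, Atp6ap2 and Lnpep had ratios below 0. The median log2 ratio was -0.01 over the 8 and -0.00 over all genes tested. Scaling on the spike-in RNAs instead moved the median of all genes to -0.43, and Agt then fell on the other side of 0 at -0.19. Under that scaling Agtr2 had 0.80 and Atp6ap2 -1.05, so that Atp6ap2 and not Agtr2 was past 2-fold. The sex-linked difference between the libraries stands beside the values of Agtr2 and Atp6ap2, both on the X chromosome, and its part in them was not tested.

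Peptidases that form, convert or degrade angiotensins outside the renin and ACE steps were led by lysosomal enzymes. Of the 16 listed, 11 had at least 1 TPM in both libraries. Beside this and the following lists stand 12445 of 43346 mouse genes at that level, and 7.59% of genes tested past 2-fold. A count of 0 or 1 past 2-fold in lists this small was not read as a result. Ctsd, the aspartic protease cathepsin D, had 868.61 TPM in replicate 1 and 954.53 TPM in replicate 2. Ctsa, cathepsin A, had 305.89 and 350.78 TPM, and Dpp3, a dipeptidyl peptidase that cleaves angiotensins, had 195.53 and 217.92 TPM. These levels were above that of Ace in both libraries. Ctsg, cathepsin G, had 0 counts in both. Of the 14 peptidases with enough counts, 0 differed 2-fold, 6 ratios lay above 0 and 8 below, and the median was -0.08.

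**Figure D4:**
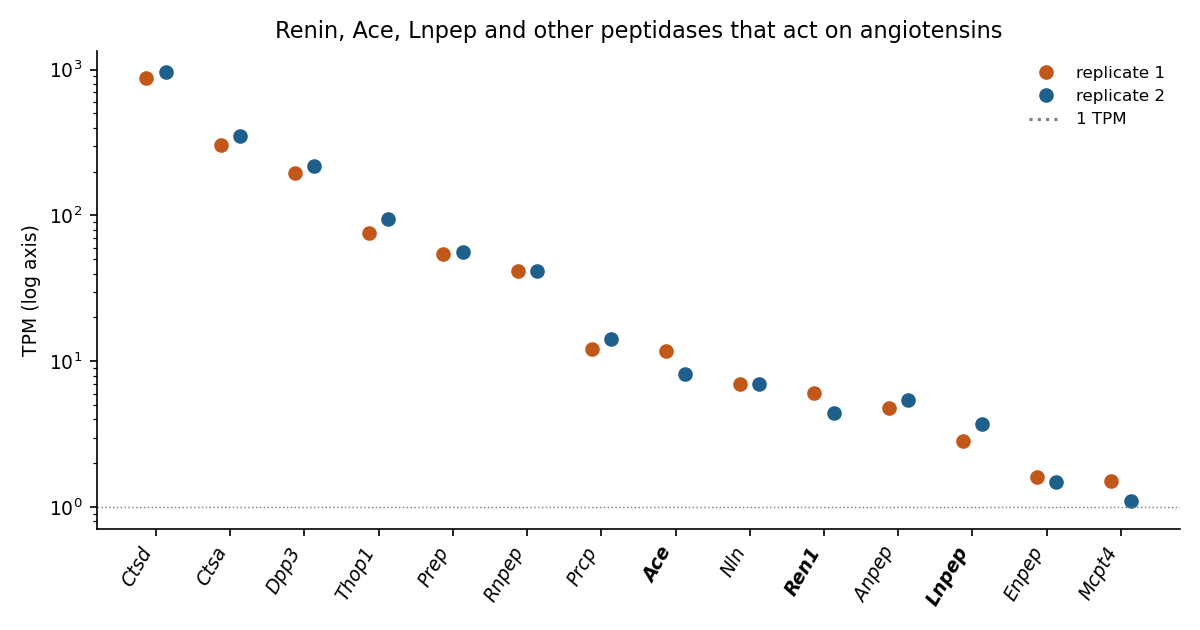
Deposited TPM of the angiotensin peptidases on a log axis, with Ace, Ren1 and Lnpep in bold, replicate 1 beside replicate 2; the genes drawn had at least 1 TPM in both libraries. Ctsd reaches 868.61 TPM in replicate 1 and 954.53 in replicate 2, above every other gene drawn.

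The receptors' signalling partners were present throughout. All 16 genes of AT1 signalling had at least 1 TPM in both libraries, and 0 of the 16 differed 2-fold (9 ratios above 0, 7 below, median 0.05, or -0.38 with spike-in scaling). The highest was Agtrap, which binds the AT1 receptor's tail and favours its internalization, with 135.96 TPM in replicate 1 and 171.96 in replicate 2. Gna11, a Gq-family alpha subunit, had 122.15 and 123.34 TPM, and Camk1, a calcium-dependent kinase, had 56.30 and 68.77 TPM.

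Of the 7 genes of the aldosterone arm, 5 reached 1 TPM in both libraries. Cyp11b2, the aldosterone synthase that angiotensin II induces, had 118.23 TPM in replicate 1 and 133.17 TPM in replicate 2, a level near that of Agtr1a. Sgk1, a kinase induced by aldosterone in its target cells, had 17.49 and 25.87 TPM, and Nr3c2, the mineralocorticoid receptor, had 3.37 and 4.41 TPM. Of the 6 with enough counts, 0 differed 2-fold, 1 ratio lay above 0 and 5 below, and the median was -0.17.

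Most other V-ATPase genes were higher than Atp6ap2, whose level carries the limit given with Gm36448. Of the 24 listed, 18 reached 1 TPM in both libraries and 17 of these were above Atp6ap2 in both. The median of their mean TPM was 83.4. Within each library, the median of the 18 was 30.9 times the level of Atp6ap2 in replicate 1 and 16.7 times in replicate 2. Atp6v0c, the proteolipid of the membrane ring, had 1196.67 TPM in replicate 1 and 1553.33 TPM in replicate 2, Atp6v0b 598.61 and 622.53 TPM, and Atp6ap1, the other accessory subunit, 358.46 and 474.47 TPM. Atp6v1b1, Atp6v1e2 and Atp6v1g3 had 0 counts in both libraries. Of the 20 with enough counts, 0 differed 2-fold, with 7 ratios above 0, 13 below and a median of -0.08.

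**Figure D5:**
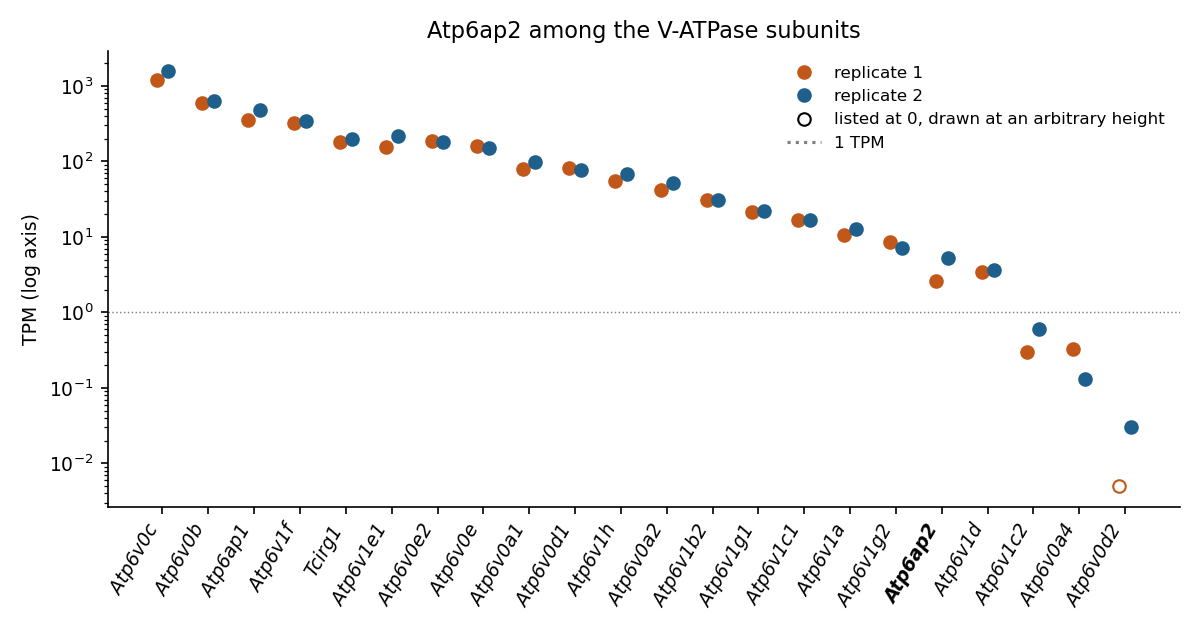
Deposited TPM of Atp6ap2 and the V-ATPase genes on a log axis, replicate 1 beside replicate 2; genes at 0 in both are not drawn, and an open circle marks a library listed at 0. Atp6ap2, with 2.58 TPM in replicate 1 and 5.22 in replicate 2, lies under 17 of the 18 others detected.

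The relatives of Lnpep, the M1 aminopeptidases, included Rnpepl1 with 523.94 TPM in replicate 1 and 584.20 in replicate 2, Rnpep at 41.36 and 41.35 TPM, and Lta4h, the leukotriene A4 hydrolase, at 30.90 and 34.82 TPM. Of these 10 genes, 8 reached 1 TPM in both libraries and 0 differed 2-fold (5 ratios above 0, 5 below, median -0.04).

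Among relatives of Mas1, 3 of 10 Mas-related receptors reached 1 TPM in both libraries. Mrgprf had 8.44 TPM in replicate 1 and 6.84 TPM in replicate 2, Mrgpre 3.95 and 2.52 TPM, and Mrgprg 1.38 and 3.06 TPM. Mrgprg, with 78 counts in replicate 1 and 186 in replicate 2, was the 1 of 3 past 2-fold (log2 ratio -1.10), beside 7.59% of all genes tested. Mrgprd, Mrgpra1 and Mrgprx1 had 0 counts in both.

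The kinin system shares Ace as its degrading enzyme. Of its 8 genes, 7 were matched and 2 reached 1 TPM in both libraries. Bdkrb2, the B2 bradykinin receptor, had 6.59 TPM in replicate 1 and 10.56 TPM in replicate 2, Cpn2 1.20 and 1.68 TPM, and Kng2 0.71 and 0.89 TPM. Of the 4 with enough counts, 0 differed 2-fold, and the 4 ratios lay below 0 with a median of -0.43. The counting intervals of Bdkrb2 (-0.83 to -0.44) and Cpn2 (-0.71 to -0.16) lay below 0. Those of Kng2 (-1.11 to 0.22) and Klk1 (-1.48 to 1.05) included 0.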

How the data were processed

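Adrenal gland poly(A) RNA was measured in 2 libraries of 1 group, numbered by the labels. The members and lists were chosen with earlier results of these data known. Per the file headers, the deposited gene and transcript tables hold expected count, TPM and FPKM columns, and for transcripts the percent of the gene's TPM, as the authors computed them on mm10 with the M4 annotation per the deposited readme. The aligner and quantifier were not given in the sources used here. Expected counts of genes were rounded to whole numbers for the scaling factors, ratios, intervals and count filter. Count ratios of transcripts used unrounded values.

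Of 69691 rows, 43346 were mouse genes, and 42462 were matched to GENCODE M21. Of 163 listed genes, 162 were matched. Spike-ins were left out of library sizes and shares. Ratios used edgeR 4.0.16 TMM factors with a prior count of 0.5. Genes needed a summed count of 20, and detection meant 1 TPM in both libraries. The scaling, ratios and intervals were tested on simulated counts that carried counting error only. Such counts cannot test the spread between animals, and the transcript and sequence steps were not simulated. Alternatives used DESeq2 1.42.0 size factors, total counts, spike-ins, posterior means, other filters and other folds. R 4.3.3, Python 3.11.15, pandas 2.3.3, scipy 1.17.1, Biopython 1.88 and blastn 2.17.0 were used. Copies were sought at 90% identity over 200 bases.

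The genes named were the 9 members; from each of 7 pathway lists the 3 highest, every gene past 2-fold and every gene at 0 in both libraries; from cell type lists the highest and those at 0; and the 3 protein-coding genes nearest to Agtr1a. Cma1, Mcpt4, Klk1, Lep, Shh, Hsd3b6, Gm36448, Xist, Airn and Gm11651 were named after their values were seen. The contig and junction tables in mm9 were not used here. The labels give both libraries 1 donor identifier, but the Y-linked counts, 358 in replicate 1 and 0 in replicate 2, are not those of repeats of 1 RNA sample.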

Additional observations from a re-analysis of the deposited data

How the results depend on the processing

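No paired analysis was possible because the libraries form 1 group. The 180 alternative values covered levels, ratios, transcript shares, numbers of genes and list medians. Agtr2 had the only member ratio past 2-fold, and none of its alternatives turned its direction. The ratio of Agt, which was not past 2-fold, became -0.19 with spike-in scaling. That scaling also turned the median log2 ratios of AT1 signalling to -0.38 (0.05 with TMM), Mas-related receptors to -0.10 (0.33), medulla to -0.32 (0.11), endothelium to -0.26 (0.17), smooth muscle to -0.20 (0.23) and fibroblasts to -0.29 (0.14). The 1201 genes past 2-fold became 4235 with no filter beyond 1 count, 689 with a summed count of 50 and 3103 at 1.5-fold. The 1 member past 2-fold became 2 with no filter, adding Mas1 on 1 count against 0, and 2 at 1.5-fold, adding Atp6ap2. Spike-in scaling left 19.1% of the genes past 2-fold higher in replicate 1, against 62.2% with TMM. Of the 9 members, 7 and not 8 were detected at 2 TPM or by FPKM. Among member levels, the posterior mean TPM was 1.77 for Agtr2 and 0.44 for Mas1, against 1.44 and 0.03 TPM. The share of Ren1-201 became 81.8% by posterior mean, against 100%. The mean ratio of Agtr1a to Agtr1b was 16.95 with posterior mean TPM and 16.96 with counts over effective transcript length, against 16.96 by TPM. Leaving out a library cannot test this ratio, the member levels or the transcript shares. For all of them, each of 2 values always lies within 1 SD of their mean. Counting depth limits Agtr2, with 76 counts in replicate 2, and Mas1.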

Other observations

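Other cell types that the lists covered had values that belong to no comparison. Macrophage markers, led by C1qa, summed to 153 TPM in replicate 1 and 151 TPM in replicate 2. Of their 4 count ratios, that of C1qa was 0.26 and the other 3 lay below 0, with a median of -0.09. Fibroblast and capsule markers, led by Nr2f2, summed to 259 and 273 TPM, and smooth muscle and pericyte markers, led by Tagln, to 122 and 142 TPM. Of the 6 fibroblast and capsule count ratios, 5 lay above 0 and that of Nr2f2 was -0.09, with a median of 0.14. Of the 6 smooth muscle and pericyte ratios, 5 lay above 0 and that of Tagln was -0.38, with a median of 0.23. Mast cell markers, led by Tpsb2, summed to 14.7 TPM in replicate 1 and 23.0 TPM in replicate 2. Cma1, a mast cell chymase whose human counterpart forms angiotensin II, had 0.85 TPM in replicate 1 and 1.12 TPM in replicate 2. Mcpt4, also on the mast cell and peptidase lists, went the other way, with 1.52 TPM in replicate 1 and 1.11 TPM in replicate 2. The counting intervals of both count ratios included 0.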
